A study of Rattus norvegicus with 9 samples.

Results

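The Zfp genes are zinc finger genes named by a number in the rat and mouse nomenclature, and 261 of them formed the set described here. Members were chosen by 3 features of the deposited count table: a protein coding biotype, a symbol of Zfp followed by a number, and at least 10 counts in each of the 9 libraries. They are 261 of the 276 protein coding Zfp genes in the table, and the table holds 37991 genes in all. RNA was sequenced at day 15 from the mPFC (medial prefrontal cortex) of rats of the inbred Wistar Kyoto strain, which serves as a depression model. The study asked which RNA changes accompany antidepressant effects that outlast dosing. The K4 group (n = 3 libraries) had K4, a compound known only by this code name, given intravenously through a cannula for 7 days. The Ketamine group (n = 3) had ketamine, an anaesthetic and NMDA receptor blocker with antidepressant action, given subcutaneously for 7 days. Both agents were then withdrawn for 7 days. The Control group (n = 3) had no treatment, and no vehicle or cannula is named for it. The labels give no dose and do not say that each library came from a separate rat, so the p-values measure only the spread between these libraries, which may be technical. Because the count minimum chose the members, their being expressed is not a result.

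Most Zfp proteins carry C2H2 zinc fingers, small folds held by a zinc ion that read DNA bases, and many begin with a KRAB domain. A KRAB domain recruits Trim28 (KAP1), which in turn brings histone methyltransferases and heterochromatin proteins, and such KRAB proteins silence transposable elements and hold imprints in mouse and human. The name covers other kinds of protein too. Zfp36, Zfp36l1 and Zfp36l2 have CCCH fingers that bind AU-rich mRNA and recruit the CCR4-NOT deadenylase, and others take part in translation, splicing or ubiquitin transfer. Zfp genes often lie in clusters of related copies, so reads of close copies may be split between them. In the current rat annotation (RefSeq, GRCr8), 13 members have another symbol, among them Zfp238, now Zbtb18, and Zfp259, now Zpr1.

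The starts of 6 members are shown because these genes, among those called in the same direction in both drug groups, had the smallest p-values and a RefSeq promoter entry. Each is 300 bases, from 250 before to 50 after the first start listed in the RefSeq table for build GRCr8. Capitals mark matches on either strand to 4 short motifs that stand near many gene starts. The GC box, which binds Sp and Klf factors, was searched as GGGCGG. The box bound by NF-Y was searched as CCAAT. The ETS core, the centre of the site of ETS factors, was searched as CCGGAA. The E-box, bound by basic helix-loop-helix factors such as Usf and Myc, was searched as CACGTG. Zfp704, Zfp366, Zfp606 and Zfp26 were lower in both drug groups, and Zfp637 and Zfp771 were higher. The windows are chr2:94128323-94128622 on the plus strand for Zfp704, chr2:32312462-32312761 on the plus strand for Zfp366, and chr1:82054198-82054497 on the plus strand for Zfp606, for which 6 starts are listed. They are chr8:27261600-27261899 on the minus strand for Zfp26, chr4:152677496-152677795 on the plus strand for Zfp637, and chr1:191294280-191294579 on the plus strand for Zfp771.
Zfp704: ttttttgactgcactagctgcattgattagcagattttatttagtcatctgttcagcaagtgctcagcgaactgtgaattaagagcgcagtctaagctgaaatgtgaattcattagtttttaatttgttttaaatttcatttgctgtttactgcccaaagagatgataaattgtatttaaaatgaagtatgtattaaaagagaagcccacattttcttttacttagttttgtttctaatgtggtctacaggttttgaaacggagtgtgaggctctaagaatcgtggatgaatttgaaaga
Zfp366: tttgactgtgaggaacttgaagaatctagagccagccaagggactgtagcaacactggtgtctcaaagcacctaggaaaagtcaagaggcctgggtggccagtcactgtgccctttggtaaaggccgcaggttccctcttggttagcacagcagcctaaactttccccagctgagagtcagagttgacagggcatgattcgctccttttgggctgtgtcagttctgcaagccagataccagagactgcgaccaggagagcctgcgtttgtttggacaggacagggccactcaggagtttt
Zfp606: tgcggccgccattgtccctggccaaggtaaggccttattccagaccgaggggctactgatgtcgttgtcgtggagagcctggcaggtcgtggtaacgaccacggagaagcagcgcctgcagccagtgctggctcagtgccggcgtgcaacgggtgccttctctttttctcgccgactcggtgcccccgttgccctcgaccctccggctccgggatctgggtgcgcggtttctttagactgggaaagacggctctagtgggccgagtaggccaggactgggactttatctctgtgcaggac
Zfp26: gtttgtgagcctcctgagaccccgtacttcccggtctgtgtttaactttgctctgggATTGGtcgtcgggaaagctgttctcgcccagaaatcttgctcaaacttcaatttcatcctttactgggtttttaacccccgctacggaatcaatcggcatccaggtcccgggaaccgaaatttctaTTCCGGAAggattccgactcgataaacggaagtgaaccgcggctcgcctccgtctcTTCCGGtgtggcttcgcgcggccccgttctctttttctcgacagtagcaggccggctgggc
Zfp637: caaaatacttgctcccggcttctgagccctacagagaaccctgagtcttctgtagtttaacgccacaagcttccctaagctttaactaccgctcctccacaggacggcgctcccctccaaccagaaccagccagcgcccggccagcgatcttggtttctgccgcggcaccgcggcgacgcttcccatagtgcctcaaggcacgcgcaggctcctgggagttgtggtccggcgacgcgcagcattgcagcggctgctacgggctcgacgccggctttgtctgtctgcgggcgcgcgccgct
Zfp771: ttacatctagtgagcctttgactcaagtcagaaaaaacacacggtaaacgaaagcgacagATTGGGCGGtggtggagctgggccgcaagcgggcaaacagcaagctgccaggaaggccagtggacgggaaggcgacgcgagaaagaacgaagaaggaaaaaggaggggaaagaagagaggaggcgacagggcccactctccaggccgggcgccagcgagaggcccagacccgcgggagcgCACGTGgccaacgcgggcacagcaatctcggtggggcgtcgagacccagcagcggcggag
The Zfp704 window was AT-rich, with 33.0% G or C and 4 CpG, whereas the windows of Zfp637 and Zfp771 held 63.7% and 62.3% G or C with 30 and 26 CpG. The Zfp26 window held 3 ETS cores, 2 of which overlap as 1 palindrome, and 1 CCAAT box. The Zfp771 window held 1 GC box, which overlaps a CCAAT box, and 1 E-box. No match was found in the other 4 windows. Of the 261 members, 213 had an entry, and 44.1% of those held a GC box, against 61.4% of the 11198 other expressed protein coding genes and 34.9% of all 27457 genes with an entry. An ETS core stood in 31.0% of members, 26.3% of the other expressed genes and 15.8% of all. A CCAAT box stood in 42.3%, 37.3% and 37.7% of the same 3 sets, and an E-box in 7.04%, 9.33% and 6.65%. The median G or C content was 57.0% in members, 61.0% in the other expressed genes and 52.3% in all. These are descriptions of letters in 1 window per gene, and no test was made on them.

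Zfp transcripts were of low abundance and long. The library totals were between 27122207 and 42731004 counts, of which members took between 0.638 and 0.682%. Levels in single libraries are given as CPM, counts per 1e6 counts of the library after scaling by the trimmed mean of M values (TMM), and compare libraries, not genes. Control 2 stood apart by its astrocyte markers, which summed to 4160 CPM, against 2960 CPM in Control 1 and 2600 CPM in Control 3, and results that rest on it are given without it as well. The median member had 3.34 FPKM (fragments per kilobase of transcript and per 1e6 fragments, as deposited), with quartiles at 1.91 and 6.48, and the median of other expressed protein coding genes was 7.23. There were 35 members at or above 10 FPKM and 26 below 1 FPKM. The transcript length implied by each gene's counts and FPKM had a median of 3.96 kb in members and 3.06 kb in the other expressed protein coding genes. All expressed protein coding genes were cut at 2.28 and 4.09 kb into 3 classes of equal size, of which the long one held 122 members (46.7%), the middle one 112 (42.9%) and the short one 27 (10.3%). Zfp192 (17.7 kb), Zfp469 (17.5 kb) and Zfp462 (12.1 kb) were the longest, and Zfp580 (1.26 kb), Zfp511 (1.29 kb) and Zfp524 (1.30 kb) the shortest. The longest and the shortest length implied by the 9 libraries differed by 1.06 times in the median member.

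The 10 most abundant members held 25.6% of all member FPKM. Zfp365, a DISC1-binding protein of the centrosome, led with a mean of 87.9 FPKM over the 9 libraries. Zfp238 (Zbtb18), a repressor needed for cortical neuron maturation in mouse, followed with 70.5 FPKM. Zfp106, an RNA-binding protein needed by motor neurons in mouse, had 39.5 FPKM, and Zfp207, a spindle and kinetochore factor, had 35.2 FPKM. Zfp637 had 29.9 FPKM, Zfp180 29.8 FPKM, and Zfp91, a ubiquitin ligase, 29.0 FPKM. Zfp483 (23.1 FPKM), Zfp706 (20.2 FPKM) and Zfp385a (20.1 FPKM), a p53 cofactor, completed the 10. At the other end, Zfp541 had 0.0694 FPKM, Zfp469 0.0753 FPKM and Zfp663 0.197 FPKM. The lowest count in any library was 12 for Zfp663, 14 for Zfp541 and 15 for Zfp93 just inside the count minimum, against 9 for Zfp185, 9 for Zfp951 and 1 for Zfp569 just outside it. Of the 15 genes outside, 7 had no count in any library, and of the 2 that entered the fit none was called.

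**Figure D1:**
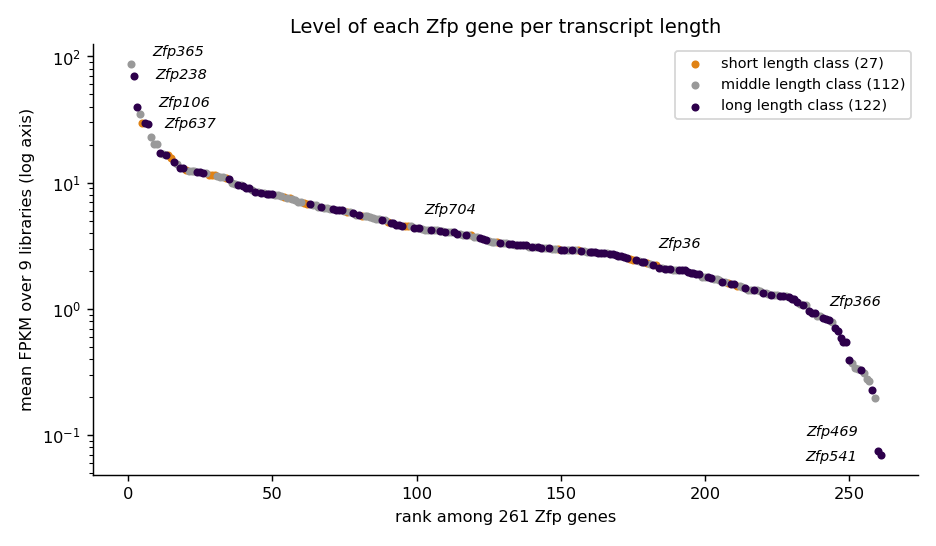
Mean FPKM of each of the 261 members over the 9 libraries (log axis) against its rank, with points coloured by the class of implied transcript length. Zfp365 at 87.9 FPKM and Zfp238 at 70.5 FPKM stand at the left end, and the median member has 3.34 FPKM.

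K4 against Control. After K4 and its withdrawal 17 members were lower and 2 higher than in Control, and the lower ones included the long genes Zfp462 and Zfp704. Only Zfp366 (0.44-fold) and Zfp758 (0.62-fold) differed by more than 0.5 on the log2 scale among those called. A call is an adjusted p below 0.05 in edgeR's quasi-likelihood test, with Benjamini-Hochberg adjustment over all 18047 genes tested. All 261 members entered the test, and 7.28% were called, against 6.07% of all genes tested. The called share was 6.51% of members in the lower direction, against 3.8% of all genes, and 0.766% in the higher direction, against 2.27% of all genes. The median log2 fold change was -0.07 over members and -0.005 over all genes tested, and 172 of the 261 members had a negative value. DESeq2 called 30 members (11.5%, against 9.54% of all genes tested), limma on log2(FPKM + 0.1) called 2, and edgeR called between 2 and 26 with 1 library left out. For limma and the fits with a library left out, no share over all genes is given.

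Zfp462, a large nuclear protein whose human gene is mutated in a neurodevelopmental syndrome, had the smallest p among members. It had 48.4, 43.1 and 45.8 CPM in the K4 libraries, against 55.8, 62.6 and 64.3 CPM in the Control libraries. Every K4 library lay below every Control library, and the log2 fold change was -0.41 ± 0.073 (SE), with adjusted p = 0.0099. It was the only member still called for K4 over Control with each of the 9 libraries left out in turn, but not with a length term in the fit (-0.22, adjusted p = 0.1). Zfp704, first described as a glucocorticoid-induced gene, had 47.6, 48.6 and 46.6 CPM in K4 and 60.5, 68.3 and 60.9 CPM in Control. The groups did not overlap, with a log2 fold change of -0.41 ± 0.076 and adjusted p = 0.012 by edgeR.

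Zfp366 (DC-SCRIPT), a corepressor of nuclear receptors known from dendritic cells, had 2.97, 3.12 and 2.94 CPM in K4 and 5.32, 9.41 and 5.71 CPM in Control. It was low in all K4 libraries and highest in Control 2, and its log2 fold change was -1.18 ± 0.23 with adjusted p = 0.014 by edgeR, or -0.88 without Control 2. The calls for both Zfp366 and Zfp704 were lost without K4 1 and without K4 3. Zfp326, a member of the DBIRD complex that couples transcription to splicing, had 22.5, 20.6 and 21.1 CPM in K4 and 29.2, 26.5 and 27.2 CPM in Control. It differed by -0.37 on the log2 scale (edgeR adjusted p = 0.019) without overlap, and is one of only 2 short members among the 17. This call was lost without Control 1, K4 2 or K4 3.

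Zfp606 had 12.8, 13.1 and 14.1 CPM in K4 and 21.1, 18.1 and 16.7 CPM in Control, a log2 fold change of -0.48 (adjusted p = 0.019 by edgeR). Zfp758 had 5.46, 4.77 and 6.01 CPM in K4 and 9.50, 9.23 and 7.47 CPM in Control, a log2 fold change of -0.69 (adjusted p = 0.023 by edgeR). In both genes every K4 library lay below every Control library. Zfp26 (-0.34, adjusted p = 0.023) and Zfp40 (-0.37, adjusted p = 0.021) were also lower in edgeR's test, and all 4 calls were lost without Control 1 and without each K4 library. The other 9 lower members were Zfp945, Zfp449, Zfp62, Zfp597, Zfp329, Zfp106, Zfp638, Zfp292 and Zfp322a, with log2 fold changes between -0.44 and -0.24. Each of these 9 lost its call in at least 5 of the 9 fits that left out 1 library.

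Both higher members were short transcripts. Zfp637 had 39.4, 44.1 and 44.8 CPM in K4 and 35.5, 35.3 and 35.4 CPM in Control, so that the Control libraries were nearly equal and all K4 libraries lay above them. Its log2 fold change was 0.27 ± 0.064 with adjusted p = 0.029 by edgeR, a call lost without Control 1, K4 2 or K4 3. Zfp771 had 22.7, 24.9 and 24.6 CPM in K4 and 18.8, 21.0 and 16.2 CPM in Control. The groups did not overlap, with a log2 fold change of 0.37 ± 0.093 and adjusted p = 0.036 by edgeR, but it was called in only 1 of the 9 fits with a library left out. Zfp259 (Zpr1), an essential nuclear-cytoplasmic protein that binds SMN, followed with 0.21 and an adjusted p of 0.06 by edgeR, which is not a call. Over all members, K4 and Control libraries did not overlap in 81 (63 lower in K4 and 18 higher, 31.0%), against 27.5% of all genes tested.

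**Figure D2:**
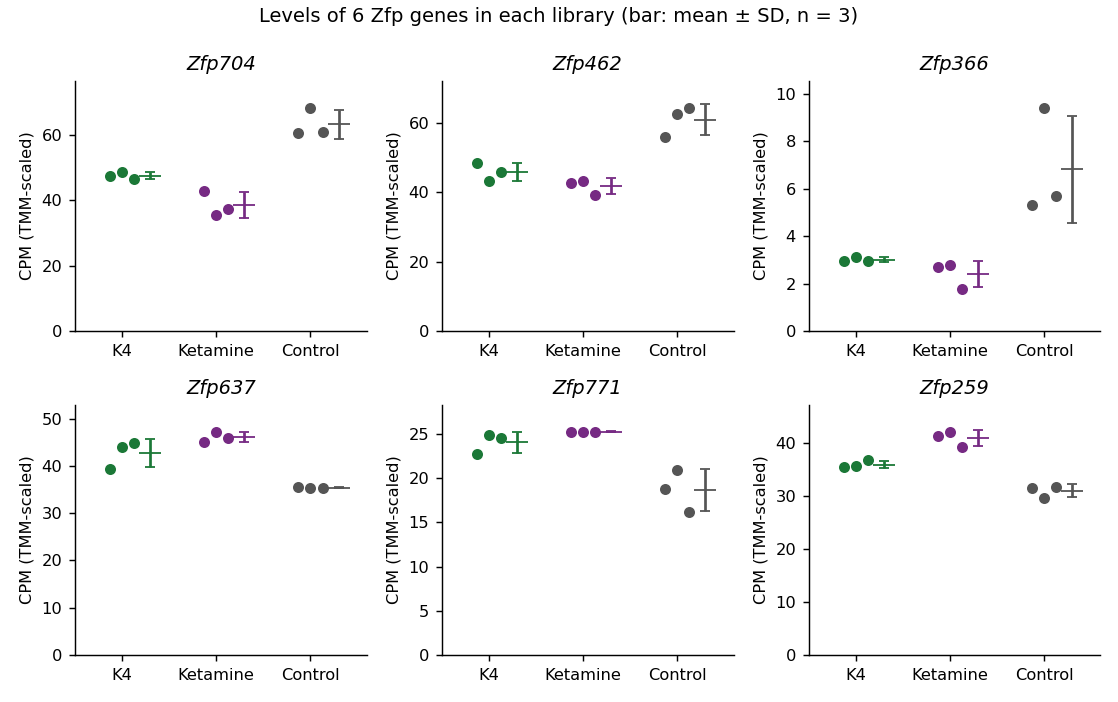
CPM in each library for Zfp704, Zfp462, Zfp366, Zfp637, Zfp771 and Zfp259, with K4, Ketamine and Control from left to right; points are libraries, and bars the mean ± SD (n = 3). In the Zfp704 panel the K4 points lie between 46.6 and 48.6, the Ketamine points between 35.6 and 43.0, and the Control points between 60.5 and 68.3.

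Ketamine against Control. After ketamine and its withdrawal 32 members were lower and 11 higher than in Control. The lower ones included Zfp704, Zfp462 and Zfp536 and the 2 abundant genes Zfp365 and Zfp106, and the higher ones included Zfp637, Zfp259, Zfp771 and Zfp622. The called share of members was 16.5%, and that of all genes tested was 16.7%. In the lower direction it was 12.3% of members and 9.75% of all genes, and in the higher direction 4.21% of members and 6.95% of all genes. The median log2 fold change was -0.068 over members and -0.002 over all genes, and 167 members had a negative value. DESeq2 called 48 members (18.4%, against 19.3% of all genes tested). With limma on log2(FPKM + 0.1) 22 members were called, and with 1 library left out edgeR called between 17 and 44. The limma and left-out counts are given without a share over all genes. The Control libraries are the same ones that K4 was compared with, so the pair of comparisons is not independent.

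Zfp704 had the smallest p of all members, with 43.0, 35.6 and 37.3 CPM in Ketamine and 60.5, 68.3 and 60.9 CPM in Control. The groups stood well apart, and the log2 fold change was -0.71 ± 0.077 with adjusted p = 0.00034 by edgeR. Zfp462 had 42.8, 43.2 and 39.1 CPM in Ketamine and 55.8, 62.6 and 64.3 CPM in Control, a log2 fold change of -0.55 ± 0.073 with adjusted p = 0.00068 by edgeR. Zfp536, a repressor of neuronal differentiation, had 10.2, 9.90 and 8.42 CPM in Ketamine and 13.6, 15.4 and 14.4 CPM in Control. It was lower in every Ketamine library, by -0.61 on the log2 scale (edgeR adjusted p = 0.0035). The call for each of these 3 genes was kept with any 1 of the 9 libraries left out.

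Zfp366 had 2.69, 2.78 and 1.76 CPM in Ketamine and 5.32, 9.41 and 5.71 CPM in Control, the widest difference of any member. Its log2 fold change was -1.5 ± 0.23 with adjusted p = 0.0016 by edgeR, and -1.2 without Control 2, its highest library. Zfp365, the most abundant member, had 235, 243 and 241 CPM in Ketamine and 303, 395 and 285 CPM in Control. The Ketamine libraries lay close together, Control 2 was high, and the log2 fold change was -0.45 ± 0.10 with adjusted p = 0.011 by edgeR, or -0.29 without Control 2. Zfp106 had 343, 329 and 351 CPM in Ketamine and 450, 553 and 431 CPM in Control, a log2 fold change of -0.49 ± 0.088 with adjusted p = 0.0032 by edgeR and of -0.37 without Control 2. Both calls were kept with any 1 library left out.

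Zfp597, whose human counterpart is imprinted, had 11.7, 10.8 and 10.8 CPM in Ketamine and 17.7, 14.5 and 18.5 CPM in Control. It was the only short transcript among the 32 lower members, with a log2 fold change of -0.60 and adjusted p = 0.003 by edgeR. Zfp652, a repressor that partners the CBFA2T3 corepressor in human cells, had 9.23, 7.76 and 8.33 CPM in Ketamine and 11.6, 15.5 and 11.6 CPM in Control. It differed by -0.61 on the log2 scale (edgeR adjusted p = 0.0081), or -0.45 without Control 2, and lost the call without Ketamine 2. Zfp606 (-0.52), Zfp831 (-0.46), Zfp26 (-0.44), Zfp148 (-0.33) and Zfp292 (-0.29) were also lower by edgeR, with adjusted p between 0.0025 and 0.0082, and were called in all 9 fits with a library left out. Zfp758 (-0.59, adjusted p = 0.019 by edgeR) lost its call without Control 1, Ketamine 2 or Ketamine 3. Zfp609, a partner of Integrator and NIPBL in mouse cortical progenitors, was lower by 0.30 on the log2 scale in Ketamine (edgeR adjusted p = 0.0092), and lost the call without Ketamine 2. In all, 13 of the 32 lower members kept their call with each library left out in turn.

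Of the 11 higher members, 3 kept their call with each library left out. Zfp259 had 41.4, 42.2 and 39.3 CPM in Ketamine and 31.6, 29.6 and 31.8 CPM in Control, without overlap, and its log2 fold change was 0.40 ± 0.062 (edgeR adjusted p = 0.0015). Zfp637 had 45.1, 47.3 and 46.0 CPM in Ketamine and 35.5, 35.3 and 35.4 CPM in Control, a log2 fold change of 0.38 ± 0.064 (adjusted p = 0.0023 by edgeR). Zfp771 had 25.2, 25.3 and 25.3 CPM in Ketamine and 18.8, 21.0 and 16.2 CPM in Control, a log2 fold change of 0.44 ± 0.093 (adjusted p = 0.0073 by edgeR). Among the other 8, Zfp622, a factor of large ribosomal subunit maturation, had 9.81, 9.40 and 10.3 CPM in Ketamine and 7.32, 5.95 and 7.94 CPM in Control. It differed by 0.47 on the log2 scale (edgeR adjusted p = 0.02) and lost the call without Control 2, Ketamine 2 or Ketamine 3. Zfp787 (0.50), Zfp628 (0.44), Zfp580 (0.37), Zfp428 (0.34), Zfp414 (0.34), Zfp513 (0.31) and Zfp692 (0.22) made up the rest, and each lost its call in at least 3 of the 9 fits. In GRCr8, 111 of the 261 members overlap another annotated gene, among them Zfp692 (Zfp672), Zfp428 (Srrm5), Zfp329 (Zfp110) and Zfp106 (Capn3), and with no stated strand setting the counts of such pairs are uncertain. In K4 or Ketamine over Control 46 of the 261 members were called, and the 111 include 23 of these. Zfp704, Zfp366, Zfp606, Zfp536, Zfp652, Zfp365, Zfp637 and Zfp259 are among the 23. Ketamine and Control libraries did not overlap in 101 members (72 lower in Ketamine and 29 higher, 38.7%), against 35.0% of all genes tested.

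Transcript length went with the changes in both comparisons. Of the 17 members lower in K4, 14 were in the long class, 1 in the middle and 2 in the short, and their median length was 5.16 kb, against 1.98 and 1.38 kb for the higher Zfp771 and Zfp637. Of the 32 lower in Ketamine, 23 were long, 8 middle and 1 short, with a median of 5.18 kb. Of the 11 higher, 7 were short, 3 middle and 1 long, with a median of 1.98 kb. Other expressed protein coding genes lower in K4 numbered 642, 487 of them long, and in Ketamine 1658, 1177 of them long. In the long class 14 of 122 members were lower in K4, against 487 of 4798 other genes. In Ketamine 23 of 122 long members were lower, against 1177 of 4798 other genes, a smaller share. There the middle class had 8 of 112 against 314 of 4807, and the short class 1 of 27 against 167 of 4893. The shares of all genes given above were not matched for length. Long members had a median log2 fold change of -0.13 in K4 over Control and -0.158 in Ketamine over Control, and other long expressed protein coding genes had -0.094 and -0.147. Short members had medians of 0.019 and 0.243, and other short genes 0.082 and 0.134. Over the 261 members Spearman's rho between length and log2 fold change was -0.34 for K4 over Control and -0.38 for Ketamine over Control, and over the other expressed protein coding genes it was -0.35 and -0.47. These genes share the same libraries, so the values are descriptions. The slope of log2 CPM deviation per doubling of length lay between -0.023 and 0.002 in the K4 libraries, between -0.086 and -0.04 in Ketamine and between 0.068 and 0.089 in Control. Every Control library thus had a steeper positive slope than every treated library.

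**Figure D3:**
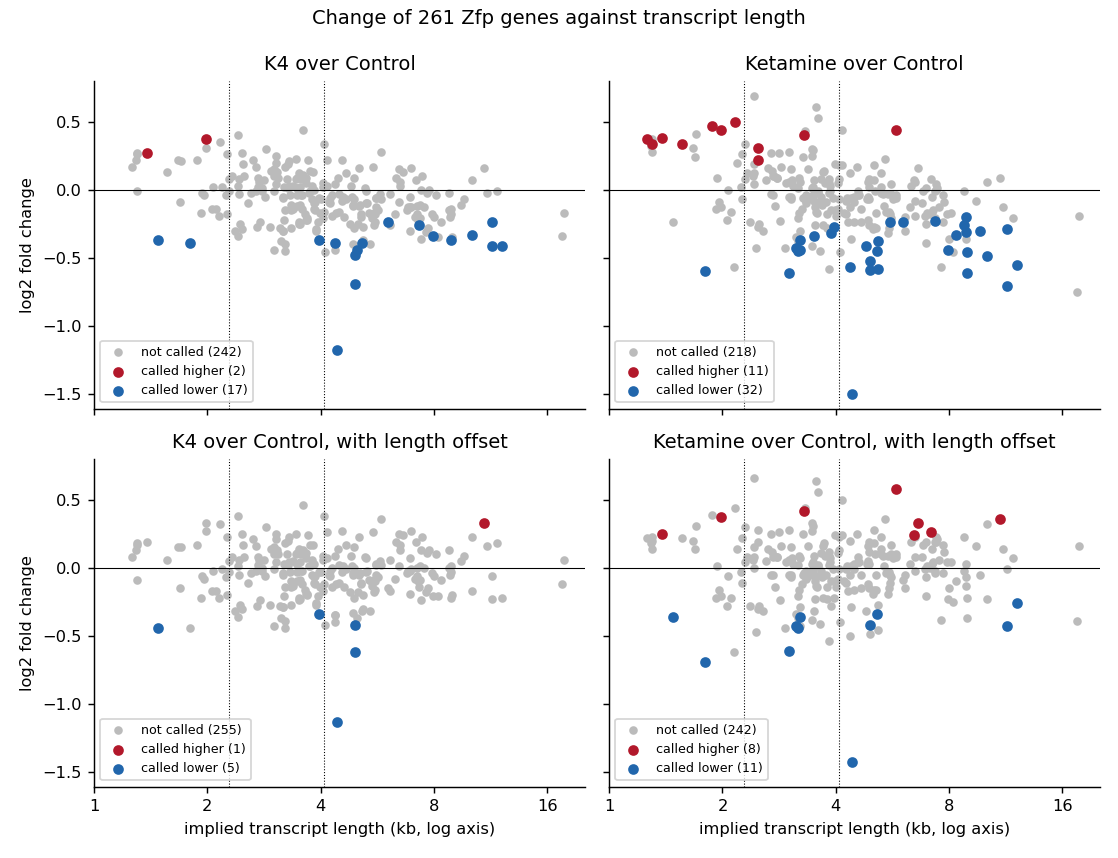
Log2 fold change of each member against its implied transcript length (kb, log axis) for K4 over Control and Ketamine over Control, without a length term in the upper panels and with it in the lower ones; red points were called higher, blue ones lower and grey ones neither, and dotted lines are the bounds of the length classes at 2.28 and 4.09 kb. Without the term Spearman's rho is -0.34 and -0.38, and with it -0.05 and -0.02. The term is fitted to each library's trend over length, so the small rho with it follows from the fit.

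With a length term for each library in the fit (a lowess offset over transcript length), 6 members were called for K4 over Control, 1 higher and 5 lower, which is 2.3% of members against 2.38% of all genes tested. The median log2 fold change of members was then -0.026. The term is drawn from these same libraries, so it would also take out any length-linked difference that treatment made. Calls kept or lost with it cannot tell treatment from another source of the slope, which was not tested. The 5 lower ones were Zfp366 (-1.13), Zfp758 (-0.62), Zfp326 (-0.44), Zfp606 (-0.42) and Zfp40 (-0.34), with edgeR adjusted p between 0.019 and 0.049. Zfp462 (-0.22, adjusted p = 0.1) and Zfp704 (-0.23, adjusted p = 0.092) were not called for K4 in that edgeR fit, nor were Zfp637 (0.19, adjusted p = 0.11) and Zfp771 (0.33, adjusted p = 0.07). The member that became called was Zfp407, which was named after its values were seen, at 0.33.

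For Ketamine over Control, 19 members were called with the length term, 8 higher and 11 lower, which is 7.28% of members against 7.6% of all genes, and their median log2 fold change was 0.012. Zfp366 (-1.43), Zfp597 (-0.69), Zfp652 (-0.61), Zfp365 (-0.44), Zfp704 (-0.43), Zfp606 (-0.42) and Zfp462 (-0.26) stayed lower by edgeR, with adjusted p between 0.0041 and 0.044. Zfp259 (0.42), Zfp771 (0.37), Zfp637 (0.25) and Zfp628 (0.58) stayed higher. Zfp106 (-0.23, adjusted p = 0.15 by edgeR), Zfp831 (-0.22, adjusted p = 0.19), Zfp148 (-0.10, adjusted p = 0.38) and Zfp609 (-0.05, adjusted p = 0.63) were not called with the term. Zfp536 (-0.37) had an adjusted p of 0.056 there by edgeR. Zfp407, Zfp532, Zfp512b and Zfp646, all long genes and named after their values were seen, were called higher only with the term, and Zfp326 (-0.36) lower only with it.

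**Figure D4:**
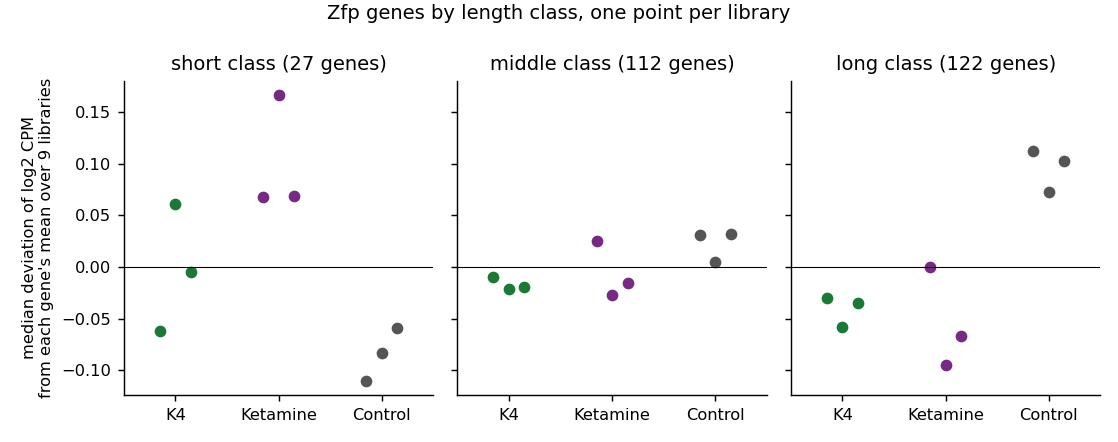
Median deviation of members' log2 CPM from each gene's mean over the 9 libraries, by library and by class of implied length, with K4, Ketamine and Control from left to right. The long class lies between -0.058 and -0.03 in K4, at or below 0 in Ketamine and between 0.072 and 0.112 in Control.

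K4 against Ketamine. No member was called between the 2 drug groups by edgeR (0 of 261, and 0.0% of all genes tested), and DESeq2 also called 0 members, with 0.388% of all genes. At an unadjusted p under 0.05 there were 21 members by edgeR and 18 by DESeq2, against 1648 and 1554 of the 18047 genes tested. The doses are not known and the routes differ, so the values stand side by side and do not compare the agents at a matched dose. The 95% interval of the log2 difference had a median half-width of 0.23 over members, and 0.42 at the 90th percentile. K4 and Ketamine libraries did not overlap in 40 members (23 higher in K4 and 17 lower, 15.3%), against 17.8% of all genes. The median log2 difference over members was -0.003.

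The smallest p was that of Zfp704, which had 47.6, 48.6 and 46.6 CPM in K4 and 43.0, 35.6 and 37.3 CPM in Ketamine. Its log2 difference was 0.30, with a 95% interval between 0.14 and 0.47 and an edgeR adjusted p of 0.32. Zfp609 had 60.0, 54.2 and 56.6 CPM in K4 and 52.3, 45.8 and 47.6 CPM in Ketamine, a difference of 0.23 with an interval between 0.08 and 0.37 (edgeR adjusted p = 0.34). Zfp831 had 33.5, 26.6 and 29.1 CPM in K4 and 23.1, 23.1 and 25.5 CPM in Ketamine, a difference of 0.32 with an interval between 0.10 and 0.53 (edgeR adjusted p = 0.38). In all 3 genes every K4 library lay above every Ketamine library, and in all 3 the K4 mean lay between the Ketamine and the Control mean. In the other direction, Zfp259 (-0.19, interval between -0.32 and -0.05), Zfp593 (-0.35, between -0.63 and -0.07) and Zfp449 (-0.27, between -0.49 and -0.05) had the smallest p, with edgeR adjusted p between 0.39 and 0.48. Zfp593, a factor of pre-ribosome export, had 8.43, 9.66 and 7.29 CPM in K4 and 10.4, 12 and 10 CPM in Ketamine. Zfp609 and Zfp831 were called for Ketamine over Control and not for K4 over Control, and this pair of intervals is the only direct measure of that difference.

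**Figure D5:**
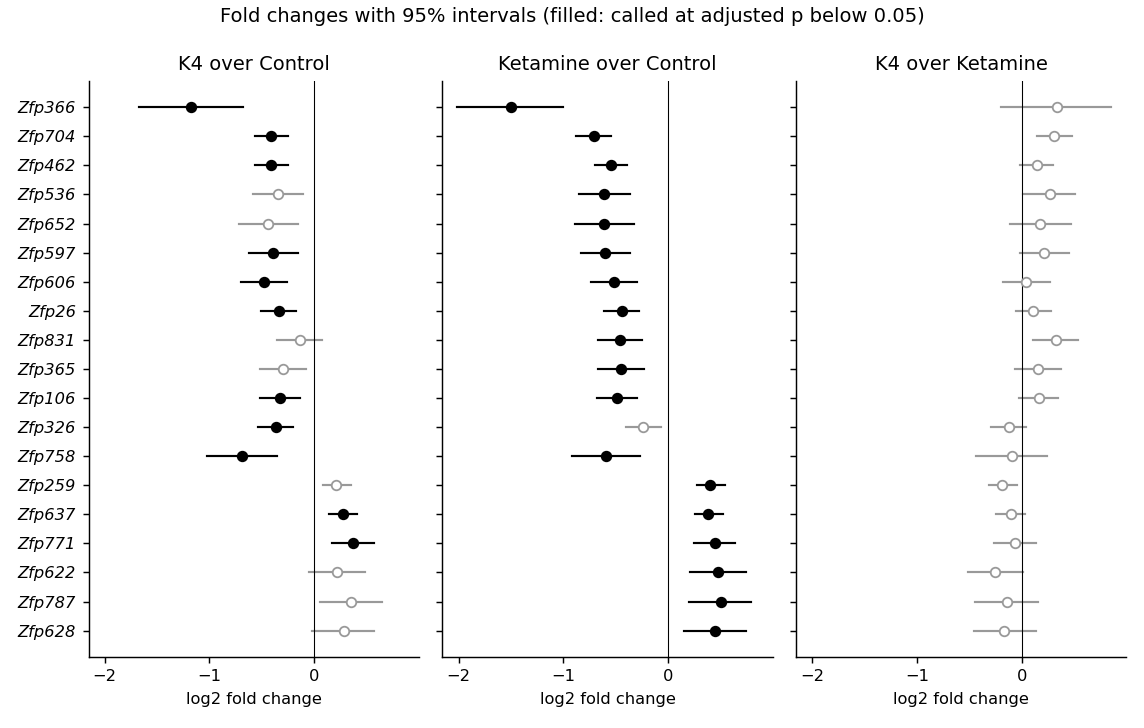
Log2 fold changes with 95% intervals of 19 members in 3 panels, K4 over Control, Ketamine over Control and K4 over Ketamine; filled points are called by edgeR at an adjusted p below 0.05. Zfp366 lies farthest to the left at -1.18 and -1.5, and no point in the K4 over Ketamine panel is filled.

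The Zfp36 genes, which act on mRNA stability, were not called in either comparison with Control. Zfp36 (tristetraprolin) had 4.19, 5.56 and 4.80 CPM in K4, 4.43, 5.27 and 4.69 CPM in Ketamine and 3.58, 6.45 and 4.35 CPM in Control. The 3 groups overlapped throughout, with log2 fold changes of 0.02 for K4 and 0.00 for Ketamine over Control. Zfp36l1 averaged 28.7 ± 2.91 CPM in K4, 27.5 ± 3.00 in Ketamine and 35.0 ± 7.60 in Control (SD, n = 3), and was not called (-0.28 and -0.35, edgeR adjusted p = 0.27 and 0.13). Zfp36l2 had -0.09 and -0.17. The ribosome-collision ubiquitin ligase Zfp598 (0.14 and -0.09) and the spindle factor Zfp207 (-0.16 and -0.07) were not called. Zfp638, an RNA- and DNA-binding nuclear protein that recruits the HUSH silencing complex, was lower in both comparisons (-0.26 and -0.23, edgeR adjusted p = 0.049 and 0.04). Each of its calls was lost in 7 of the 9 fits with a library left out, and with the length term.

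The CCR4-NOT and decay factors, the partners of the Zfp36 proteins, had 16 genes in the test. In K4 2 were lower (12.5%, against 3.8% of all genes tested) and in Ketamine 6 (37.5%, against 9.75%), none was higher, and the medians were -0.054 and -0.07. With the length term 0 were called for K4 (5 had an unadjusted p under 0.05, as had 3539 of all 18047 genes tested). For Ketamine 1 was called, the decapping enzyme Dcp2 (-0.77, edgeR adjusted p = 0.017, and -0.69 without the term). The genes named from this list and from the corepressors and imprinted genes were picked after their values were seen. Cnot6l, a deadenylase subunit, was lower in K4 (25 ± 0.935 CPM) and in Ketamine (24.5 ± 2.29 CPM) than in Control (32.9 ± 1.95 CPM; SD, n = 3). Cnot1, the scaffold, was lower in Ketamine (-0.33, edgeR adjusted p = 0.0049), and had -0.11 in K4. With the length term neither was called: Cnot6l had -0.27 for K4 and -0.22 for Ketamine, and Cnot1 had 0.04 and -0.10.

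Of a list of KRAB corepressors and general heterochromatin factors, 24 genes were tested. In K4 4 were lower (16.7%, against 3.8% of all genes tested) and in Ketamine 7 (29.2%, against 9.75%), none was higher, and the medians were -0.067 and -0.045. With the length term 1 was called in each. Trim28, the KRAB partner itself, averaged 116 ± 2.89 CPM in K4, 114 ± 3.14 CPM in Ketamine and 104 ± 3.59 CPM in Control (SD, n = 3), with an edgeR adjusted p of 0.1 in both comparisons. Cbx5, the heterochromatin protein HP1 alpha, averaged 18.7 ± 1.14 CPM in K4, 19.8 ± 1.5 CPM in Ketamine and 23.8 ± 0.483 CPM in Control, and was lower in both (-0.35 and -0.26, edgeR adjusted p = 0.03 and 0.043). It stands with a short transcript of 1.2 kb and kept its call in both with the length term. Atrx, a heterochromatin remodeller of 12.1 kb, was lower by 0.29 in K4 and by 0.35 in Ketamine on the log2 scale, and Setdb1, the histone methyltransferase, had -0.00 and -0.08.

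The imprint guardians Zfp57 and Zfp445 were not called. Both overlap another annotated gene in GRCr8, Zfp57 the oligodendrocyte marker Mog, so their counts are uncertain without a stated strand setting. Zfp57 averaged 11.2 ± 1.23 CPM in K4, 11 ± 1.54 CPM in Ketamine and 12.3 ± 0.966 CPM in Control. Zfp445 averaged 81.2 ± 2.21 CPM in K4, 78.7 ± 2.61 CPM in Ketamine and 88.6 ± 5.83 CPM in Control (SD, n = 3), with edgeR adjusted p of 0.23 and 0.071. Among 17 imprinted genes tested, 1 was higher and 1 lower in K4, and 2 were higher and 1 lower in Ketamine, which is 11.8% and 17.6% of them, against 6.07% and 16.7% of all genes tested. With the length term 0 were called for K4 (6 had an unadjusted p under 0.05, as had 3539 of all 18047 genes tested). For Ketamine 1 was called, Nnat. Nnat, an imprinted membrane proteolipid of neurons, was higher (0.54 and 0.65), and Grb10, an imprinted insulin-receptor adaptor, was lower (-0.36 and -0.30). With the length term Nnat had 0.46 for K4, not called by edgeR (adjusted p = 0.084), and 0.52 for Ketamine, while Grb10 had -0.20 and -0.04 and was not called.

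Among transcription regulators of brain and cortex, Zfp189 has been linked to stress resilience in mouse prefrontal cortex. It had 10.4, 22.7 and 15.1 CPM in K4, 11.8, 19.7 and 22.8 CPM in Ketamine and 16.3, 21.6 and 19.5 CPM in Control. The spread within the drug groups was wide, the groups overlapped, and the log2 fold changes of -0.25 and -0.08 had 95% intervals between -0.98 and 0.47 and between -0.80 and 0.64. Zfp238 (Zbtb18) averaged 310 ± 16.5 CPM in K4, 327 ± 14.5 CPM in Ketamine and 329 ± 23.0 CPM in Control (SD, n = 3) and was not called. Zfp804a, a human schizophrenia risk gene, and the Ebf partners Zfp423 and Zfp521 were not called in either comparison. The activator Zfp143 and the transcription factor Zfp281 were not called. Zfp148 (ZBP-89) was lower in Ketamine (-0.33, edgeR adjusted p = 0.0067) and had -0.24 in K4 (adjusted p = 0.058). The ubiquitin ligase Zfp91 (-0.18 in both), the parkin substrate Zfp746 (0.01 and 0.12), the G9a partner Zfp644 (-0.09 and -0.19), Zfp592 (-0.11 and -0.21) and the X-linked Zfp711 (-0.13 and -0.03) were not called.

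Of the members, 256 could be placed in GRCr8, 66 of them on chromosome 1 and 23 on chromosome 10, and 76 stood in 31 runs of adjacent members. The run Zfp560, Zfp26, Zfp426, Zfp266 and Zfp846 on chromosome 8 held 1 lower member, Zfp26, in each comparison, with medians of -0.18 for K4 and -0.12 for Ketamine. The run Zfp786, Zfp398, Zfp282, Zfp212 and Zfp956 on chromosome 4 held none, with medians of 0.03 and -0.03. The pair Zfp945 and Zfp40 on chromosome 1 was lower in K4, with a median of -0.41, and in Ketamine 1 of the 2 was called.

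Other zinc finger families were taken by the same count minimum and are read against the 6.07% of all genes called for K4 and the 16.7% called for Ketamine. By edgeR 4245 of the 18047 genes tested had an unadjusted p under 0.05 for K4, and 5640 for Ketamine. By DESeq2 4080 had one for K4. Of 38 Zbtb genes, many of which are BTB-domain repressors, 3 were lower in K4 (7.89%) and 6 in Ketamine (15.8%). Of 15 Klf genes, a family of GC-box binding factors, 1 was lower in K4 (6.67%) and 5 in Ketamine (33.3%), and neither family had a higher gene. Of 18 Zc3h genes, which carry CCCH fingers, 3 were lower in Ketamine (16.7%) and 0 were called in K4 by edgeR and by DESeq2, with 5 at an unadjusted p under 0.05 by each. Of 12 Zkscan and Zscan genes edgeR called 0 in both comparisons, with 1 at an unadjusted p under 0.05 in each, and DESeq2 called 0 for K4 and 1 for Ketamine. Of 8 Znf genes 1 was higher in Ketamine and 0 were called in K4 by both tools, with 1 at an unadjusted p under 0.05 by each.

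The tissue was mixed, and fewer cells of a type and less RNA per cell cannot be told apart in such bulk samples. Excitatory neuron markers (6 of 6 tested) summed to between 1350 and 1410 CPM in K4, 1320 and 1410 CPM in Ketamine and 1170 and 1430 CPM in Control, so the defining markers of the labelled cortex were present. Astrocyte markers (6 of 6) summed to between 2220 and 2450 CPM in K4, 2000 and 2190 CPM in Ketamine and 2600 and 4160 CPM in Control. Microglial markers (4 of 4) summed to between 171 and 186, 155 and 162, and 179 and 273 CPM in K4, Ketamine and Control, and endothelial and pericyte markers (5 of 5) to between 170 and 202, 140 and 163, and 197 and 289 CPM. Precursors of oligodendrocytes (2 of 2) showed between 101 and 118, 93.0 and 101, and 121 and 194 CPM, and oligodendrocytes (5 of 5) between 1860 and 2520, 1290 and 1680, and 1430 and 2350 CPM. Inhibitory neuron markers (6 of 6) lay between 423 and 458, 411 and 446, and 406 and 462 CPM, striatal markers (4 of 4) between 88.7 and 104, 87.0 and 91.4, and 75.2 and 83.2 CPM, and blood markers (2 of 2) between 45.6 and 86.4, 29.8 and 40.2, and 37.1 and 74.4 CPM. A sum can hide single markers. Ppp1r1b made up most of the striatal sum and was called higher (log2 fold changes of 0.45 for K4 and 0.31 for Ketamine). Drd2 had 0.22 and 0.08, Drd1 -0.08 and -0.29 and Adora2a -0.5 and -0.35, none called. The excitatory marker Cux2 was called lower in both (-0.46 and -0.42). In Ketamine Gad2 was called lower (-0.63) and Pvalb higher (0.36). Among astrocyte markers only Gfap had positive values (0.12 and 0.06). The other 5 were called lower in Ketamine, between -1.57 (Slc1a2) and -0.41 (Aldh1l1). Slc1a2 (-0.89) and Aqp4 (-0.53) were also called lower in K4. Flt1 (-0.59 and -0.96), Rgs5 (-0.83 and -1.47) and P2ry12 (-0.52 and -0.6) were called lower in both. In Ketamine alone Tbr1 (-0.27), Cx3cr1 (-0.46), Csf1r (-0.43), Pdgfra (-0.65) and Cspg4 (-0.59) were called lower. Cldn11 was called higher in K4 (0.41). No other marker was called by edgeR. Of 3 choroid plexus markers only 1 passed the filter, at no more than 0.57 CPM in any library. Control 2 had the highest astrocyte, microglial, endothelial and precursor sums of the 9 libraries. Among lower members it was the highest Control library for Zfp366, Zfp365, Zfp106, Zfp652 and Zfp704. It was the lowest Control library for Zfp148, Zfp26 and Zfp597, and not the highest for Zfp462, Zfp606, Zfp758 and Zfp292. The part that cell makeup had in the lower values of these members was not tested. Without Control 2, Zfp366 (-0.88), Zfp704 (-0.35) and Zfp106 (-0.22) were still called for K4 over Control by edgeR.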

How the data were processed

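Per the labels' protocols, a stranded poly(A) kit turned total RNA into the libraries. The submitters' processing notes name build rn6, HISAT2 2.1.0, StringTie 2.1.3b, bcl2fastq 2.20.0 and Trimmomatic without a version, and give no role or order for them. How the reads were counted, and with which strand setting, is not given in the sources used. The deposited raw counts per gene were tested. The authors' FPKM served for levels, for implied lengths (counts divided by FPKM and library total) and for an alternative test, and the deposited TPM was not used. Counts were fitted with edgeR 4.0.16 in R 4.3.3 (quasi-likelihood, robust, TMM scaling, all 3 groups in 1 fit) on 18047 genes passing filterByExpr (minimum count 10, minimum total 15), with Benjamini-Hochberg adjustment over all of them and a threshold of 0.05. The biological coefficient of variation was 10.2%. Alternatives were other scalings, a length offset (lowess span 0.3), DESeq2 1.42.0, count filters, limma 3.58.1 on log2(FPKM + 0.1) and log2(FPKM + 1) for genes with a mean FPKM of at least 0.1, a replicate block, leaving out each library, 2 groups only, and other member rules. Genes were named by rule: per comparison and direction the 8 called members with the smallest p and the 5 with the largest change (where fewer than 3 were called, the 3 with the smallest p), the 10 highest and 3 lowest by FPKM, the 3 longest and 3 shortest, the 3 nearest the count minimum on each side, and a fixed set of 35 names with known roles, of which 34 are members. The members, lists and tests were chosen with earlier results of these data known, and gene lists are described by counts and medians only. Subgroups by protein domain were not analysed here. Promoter sequences came from RefSeq (GRCr8), and 257 of 261 gene IDs matched that annotation.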

Additional observations from a re-analysis of the deposited data

How the results depend on the processing

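For K4 over Control, 19 members were called, 2 higher and 17 lower. This count was 6 with the length offset, 30 with DESeq2 (5 higher and 25 lower), 2 with log2(FPKM + 0.1) and 2 with log2(FPKM + 1) (1 higher and 1 lower in each), and 9 with only the K4 and Control libraries in the fit. It lay between 2 and 26 with 1 library left out: 3 without Control 1, 26 without Control 2, 3 without K4 1, 3 without K4 2, 2 without K4 3, and 11 without Ketamine 2 or Ketamine 3. The members' median log2 fold change of -0.07 became -0.026 with the length offset and -0.017 and -0.012 on the FPKM scales, and lay between -0.085 and -0.051 with 1 library left out. For Ketamine over Control, 43 members were called. The count was 19 with the length offset (8 higher and 11 lower) and 48 with DESeq2 (12 higher and 36 lower). It was 22 with log2(FPKM + 0.1) (11 each way) and 23 with log2(FPKM + 1) (12 higher and 11 lower). It lay between 17 and 44 with 1 library left out: 23 without Control 1, 17 without Ketamine 2 and 24 without Ketamine 3. The median of -0.068 became 0.012 with the length offset and -0.016 and -0.014 on the FPKM scales, and lay between -0.095 and -0.052 with 1 library left out. For K4 over Ketamine the count was 0 under all 19 alternatives, and the median of -0.003 lay between -0.015 and 0.026 with 1 library left out, the last without Ketamine 1. The cause of these shifts was not tested. Apart from the length offset and DESeq2, no share over all genes is given for the alternatives. Their counts describe the fits and are no result about the members. The other scalings, count filters and member rules gave between 15 and 20 calls for K4 and between 39 and 43 for Ketamine. Same-numbered libraries had correlations of their deviations between 0.002 and 0.106, all positive, and different-numbered ones between -0.157 and 0.069. Among same-numbered pairs only Control 1 and K4 1 were over 0.1 (0.106), and Control 3 correlated best with K4 2 among the K4 libraries (0.05). The numbers were not taken to pair the libraries, but these values do not settle whether they do. With the replicate block 18 members were called for K4, 45 for Ketamine and 0 for K4 over Ketamine. Of 195 fold changes of named members over the 3 comparisons, 24 lost a call and 1 gained one with the length offset, up to 22 lost and up to 9 gained one under any other alternative, and no called one changed sign.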
